A study of Mus musculus with 14 samples.

Results

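Astrocytes that meet injury, infection or disease enlarge their filament skeleton and express a set of genes that are low in the resting brain, a state called reactive astrogliosis. The reactive genes are commonly divided into pan-reactive genes, seen in many kinds of injury, A1 genes, described after inflammatory challenge, and A2 genes, described after ischemia. Cytokines of the interleukin-6 family act through the transcription factor STAT3 to induce many of them, and Gfap, the filament gene of astrocytes, is the usual marker. The 32 genes described here were chosen by symbol from the 55450 genes of the deposited table as 10 pan-reactive, 3 A1 and 11 A2 genes and 8 further genes linked to the reactive state, without the serpins and the interferon genes. Of these, 24 had an FPKM (sequenced fragments scaled to transcript length and library size) of at least 0.5 in at least 3 of 14 libraries and were tested together with 18059 such genes in all. The other 8, Clcf1, Osmr, Steap4, Timp1, Ptx3, Tgm1, B3gnt5 and Slc10a6, were below that level.

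The libraries were made from poly(A) RNA of the whole hippocampus of female C57BL/6J mice at 10 weeks of age, with 1 library per mouse. GPR30, encoded by Gper1, is a membrane estrogen receptor. The 4 genotypes were WT (n = 3), the global GPR30 knockout Δ3102 (n = 3), AG-KO (GPR30 fl/fl;GFAP-Cre, n = 4), in which Cre is driven by the promoter of GFAP, and NG-KO (GPR30 fl/fl;NSE-Cre, n = 4), in which Cre is driven by that of neuron-specific enolase. Promoters of GFAP can also be active in neural progenitors. Δ3102, AG-KO and NG-KO mice were each compared with the same 3 WT mice, which carried no Cre, and AG-KO mice were compared with NG-KO mice, which share the floxed alleles and the presence of a Cre. Whole-tissue RNA cannot distinguish fewer cells of a type from less RNA per cell. The libraries held 44527024 to 62669865 counts. Gper1 FPKM was 0.797 to 3.05 in WT, 0.0124 to 0.145 in Δ3102, 0.540 to 1.38 in AG-KO and 0.975 to 1.41 in NG-KO mice, so that all Δ3102 mice lay below all others while the AG-KO and NG-KO mice overlapped the WT mice. Astrocyte markers were present in all libraries, with Aldh1l1 at 9.47 to 14.2 FPKM, Aqp4 at 10.8 to 16.6 FPKM and Slc1a2 at 74.4 to 137 FPKM.

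In the hippocampus of WT mice the reactive genes covered a wide range of levels, from Gfap at 107 ± 11.6 FPKM (SD, n = 3) to Slc10a6, which had a count of 0 in all 3. Gfap, S100a16 (34.2 ± 1.63 FPKM) and S100a10 (18.3 ± 1 FPKM) were the 3 members at 10 FPKM or more. Another 10 lay between 1 and 10 FPKM, in the order Vim (9.33 ± 2.23), Stat3, S100a6, S100a4, Tm4sf1, Srgn, S1pr3, Nes, Cp and Cd14 (1.18 ± 0.120), and 19 lay under 1 FPKM. Of the 31 pairs of neighbors in this order, 22 had WT values that overlapped, and below Vim the order of single genes was mostly within the spread between mice. Among the members of the injury sets, the strongly inducible Lcn2, Timp1, Ptx3, Osmr and Steap4 were all under 1 FPKM. Gfap, S100a16 and Vim, among the highest, are also expressed by resting glia or vessels.

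**Figure D1:**
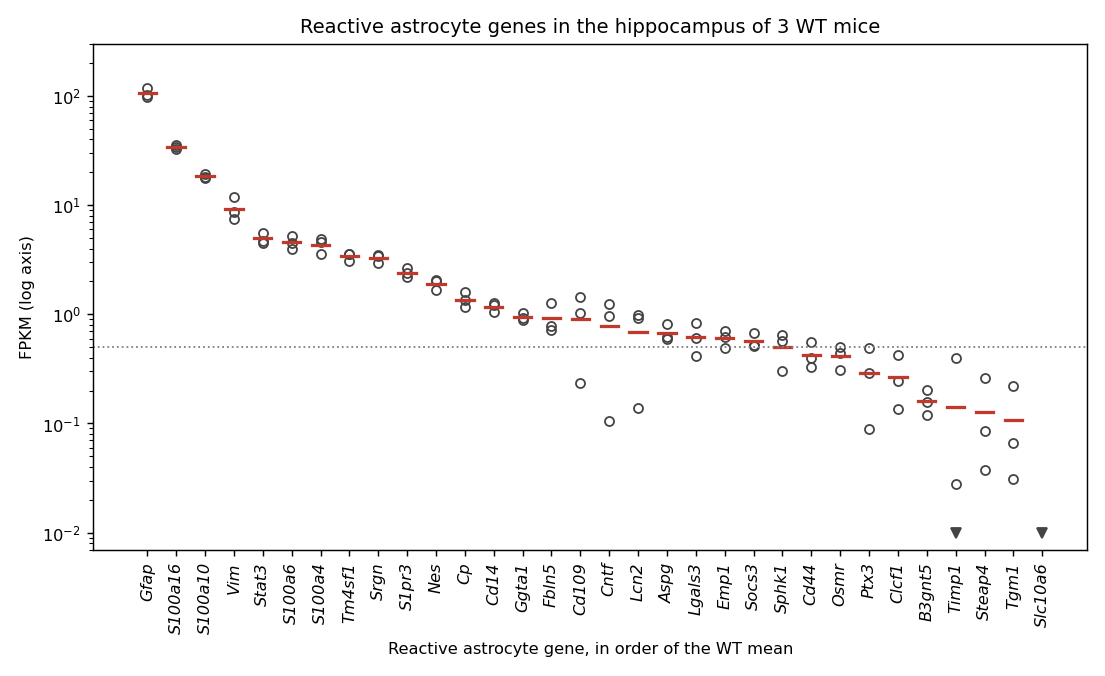
FPKM of the 32 reactive astrocyte genes in the 3 WT mice on a log axis (open points, 1 per mouse; red lines, means), ordered by the mean; triangles mark mice below 0.01 FPKM and the dotted line marks 0.5 FPKM. Gfap stands above all other members at 97.9 to 119.7 FPKM, and 19 of the 32 have a mean under 1 FPKM.

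No member passed an adjusted p of 0.05 in edgeR in any of the 4 comparisons, in which 0.0111% (Δ3102 against WT), 0.0221% (AG-KO against WT), 0.0720% (NG-KO against WT) and 0.111% (AG-KO against NG-KO) of all tested genes did. DESeq2 at the same threshold called S100a16 in Δ3102 mice and Gfap, Stat3 and S1pr3 in AG-KO against NG-KO mice, and no member in AG-KO or NG-KO against WT mice. DESeq2 called more of all genes as well, with 0.198% in Δ3102, 2.23% in AG-KO and 0.916% in NG-KO mice against WT and 2.68% in AG-KO against NG-KO mice. In limma on log2(FPKM + 0.1) no member passed. Without adjustment, edgeR gave a p under 0.05 to 1 member higher (2.18% of all genes) and 2 lower (2.27%) in Δ3102 mice, and to 1 higher (6.65%) and 1 lower (7.74%) in AG-KO mice. Leaving out replicate 2 of the AG-KO mice raised the 2 members of this comparison to 5 (19.1% of all genes in either direction), and leaving out replicate 1 (17.0%) or 3 (10.4%) lowered them to 1. In NG-KO mice it did so for 1 member higher (4.33%) and 6 lower (4.83%). In AG-KO against NG-KO mice 6 members were higher (7.30%) and none was lower (6.84%). These 6 were Gfap, Vim, Nes, Stat3, S1pr3 and Tm4sf1, and the 6 that were lower in NG-KO than in WT mice were Gfap, Stat3, Cp, Emp1, S100a4 and S100a16.

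The direction of the members can also be read without a threshold. The median log2 fold change of the 24 tested members was -0.17 in Δ3102, -0.075 in AG-KO and -0.37 in NG-KO mice against WT, and 0.29 in AG-KO against NG-KO mice, while that of all tested genes lay between -0.016 and -0.0037. Of the 24, 5 were higher in Δ3102 (49.2% of all tested genes), 11 in AG-KO (48.2%) and 3 in NG-KO mice (47.5%) than in WT mice. The 11 are 45.8% of the members, near the share of all genes. In AG-KO against NG-KO mice 17 were higher (48.6% of all tested genes). Groups whose FPKM values did not overlap were found for 1 member higher (5.40% of all tested genes) and 3 lower (6.13%) in Δ3102 mice and for 2 higher (5.04%) and 1 lower (8.30%) in AG-KO mice. In NG-KO mice there were none higher (4.20%) and 8 lower (6.66%), and in AG-KO against NG-KO mice 5 higher (3.46%) and none lower (3.31%). The 3 comparisons with WT share the WT mice, so the values of 1 comparison are not independent of those of another. The 24 passed a filter on their level, and these shares do not describe the 8 members below it. Among the 24 were 4 members that reached 0.5 FPKM in no mouse of a genotype and passed through the others. These were Emp1 in AG-KO and NG-KO, Lgals3 in NG-KO, Lcn2 in AG-KO and Sphk1 in Δ3102 mice. Emp1 and Lgals3 are among the 8 counted lower in NG-KO mice. Emp1 is also among the members lower at an unadjusted p in AG-KO and NG-KO mice. Cd44, counted higher against WT by p or by overlap, reached 0.5 FPKM in only 1 of 3 WT mice. For these genes the counts are not support for a difference.

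**Figure D2:**
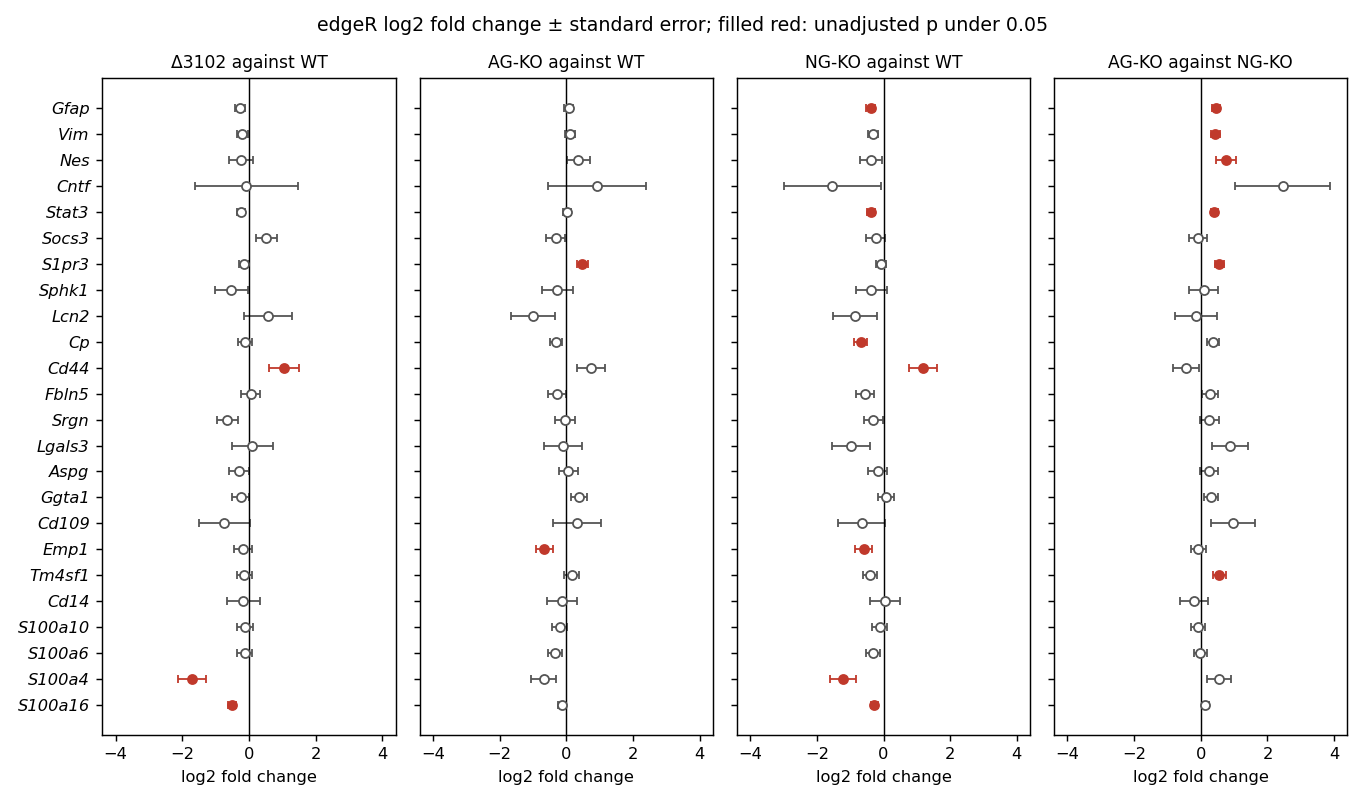
Log2 fold change of the 24 tested members (points) with standard error (bars) from edgeR in the 4 comparisons, 1 panel each; filled red points have an unadjusted p under 0.05. In NG-KO against WT 21 of 24 points lie left of 0, while 47.5% of all tested genes were higher. In AG-KO against NG-KO 17 points lie right of 0, while 48.6% of all tested genes were higher.

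Gfap (ENSMUSG00000020932, chromosome 11 from 102887336 to 102897200 of GRCm38, minus strand), Vim (ENSMUSG00000026728, chromosome 2 from 13573927 to 13582826) and Nes (ENSMUSG00000004891, chromosome 3 from 87971078 to 87980451) encode the intermediate filament proteins GFAP, vimentin and nestin, which build the astrocyte skeleton and are the classical signs of reactivity; vimentin is also made by vessels and meninges, and nestin by neural progenitors and endothelium. Gfap FPKM was 102, 119.7 and 97.9 in WT and 84.9, 86.4 and 93.8 in Δ3102 mice. It was 119, 97.8, 121 and 101 in the AG-KO mice. It was 94.6, 78.7, 89.7 and 61.1 in the NG-KO mice. All Δ3102 and all NG-KO mice lay below all WT and AG-KO mice in FPKM, NG-KO replicate 4 was the lowest of the 14, and the AG-KO mice covered the same range as the WT mice. edgeR gave Gfap a log2 fold change, with its standard error (SE), of -0.27 (SE 0.15, adjusted p = 1) in Δ3102 and 0.072 (SE 0.14, adjusted p = 0.860) in AG-KO mice. For NG-KO mice the value was -0.38 (SE 0.14, adjusted p = 0.426), and in CPM (counts scaled to library size) the highest NG-KO mouse lay within the WT range. In AG-KO against NG-KO mice it was 0.45 (SE 0.13, adjusted p = 0.170), a level 36.8% higher, and DESeq2 gave an adjusted p of 0.0467. Over all alternative settings the adjusted p of this difference ran from 0.0467 to 0.917.

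Vim FPKM was 7.48, 11.8 and 8.69 in WT and 7.41, 8.97 and 7.86 in Δ3102 mice. The AG-KO mice had 12.1, 9.08, 8.65 and 9.68 FPKM and the NG-KO mice 6.41, 8.13, 7.82 and 7.13 FPKM. WT replicate 2 and AG-KO replicate 1 stood highest, and every AG-KO mouse lay above every NG-KO mouse. AG-KO against NG-KO mice differed in Vim by a log2 fold change of 0.44 (SE 0.14, adjusted p = 0.214). Against WT it was -0.20 (SE 0.16, adjusted p = 1) in Δ3102, 0.11 (SE 0.15, adjusted p = 0.783) in AG-KO and -0.33 (SE 0.15, adjusted p = 0.552) in NG-KO mice. The Δ3102, AG-KO and NG-KO mice all overlapped the WT mice in Vim. Nes FPKM was 2.67, 2.07, 2.37 and 2.54 in the AG-KO mice and 1.04, 1.77, 1.54 and 1.45 in the NG-KO mice. In the WT mice it was 2.05, 2.01 and 1.68, and in the Δ3102 mice 2.26, 1.97 and 0.609. Δ3102 replicate 3 was the lowest library, AG-KO and NG-KO mice did not overlap, and the lowest AG-KO mouse was barely above the highest WT mouse. For Nes the log2 fold change in AG-KO against NG-KO mice was 0.75 (SE 0.31, adjusted p = 0.293). Across the 14 libraries log2 CPM of Gfap and Vim had a Pearson's r of 0.637 (permutation p = 0.0140, adjusted p = 0.0701 over 5 relations) and a Spearman's rho of 0.596 (permutation p = 0.0275, adjusted p = 0.137). Without AG-KO replicate 1 and WT replicate 2, which were farthest from the median, r was 0.464, and after the mean of each genotype was subtracted r was 0.235, so that the relation rests on those mice and on the genotype means.

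**Figure D3:**
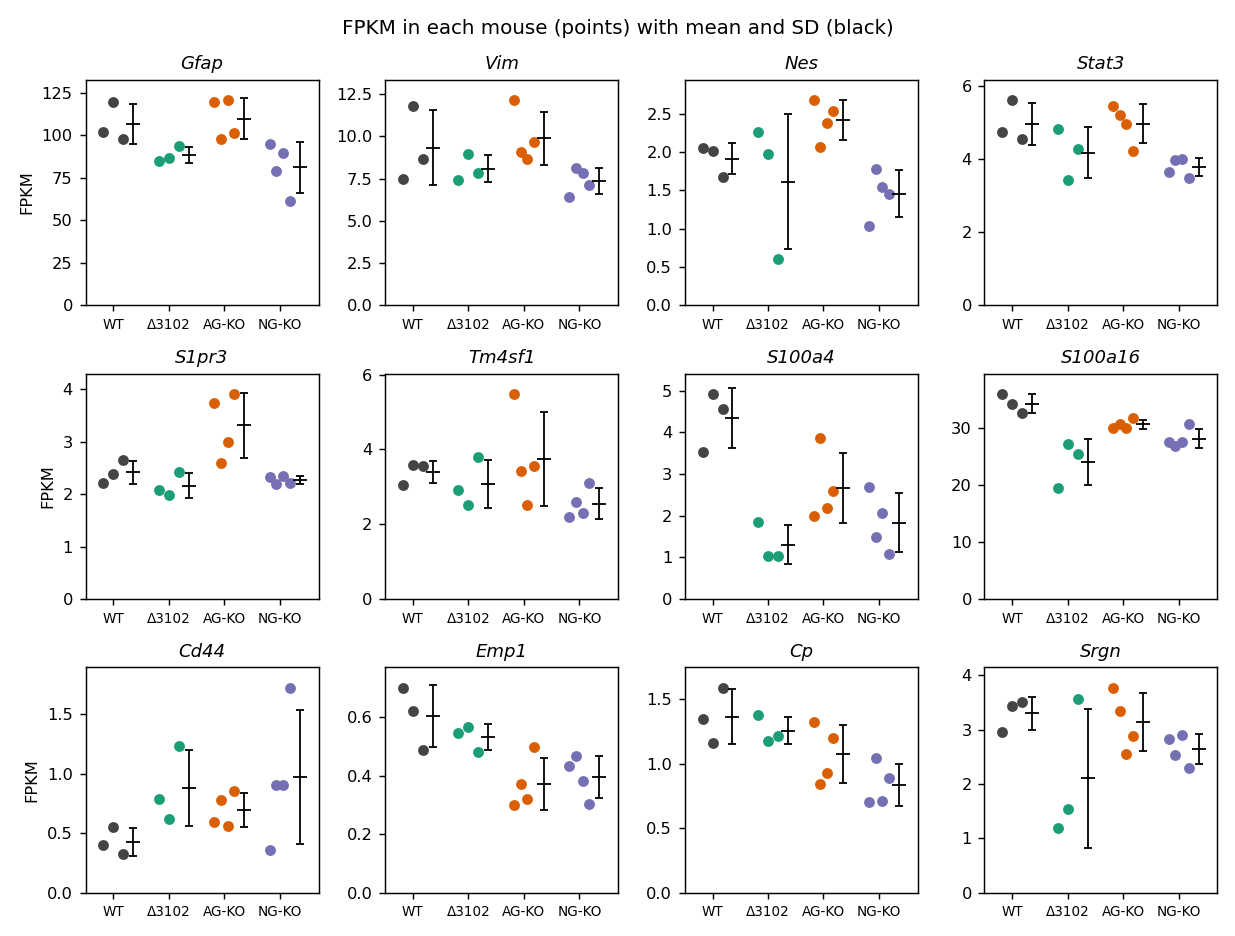
FPKM of 12 members in each mouse (colored points) by genotype, with the mean and SD of each genotype in black; every axis starts at 0. Gfap, Vim, Nes, Stat3 and S1pr3 are higher in all 4 AG-KO than in all 4 NG-KO mice, and S100a4 and S100a16 are lower in all 3 Δ3102 than in all 3 WT mice.

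The cytokine arm of reactivity runs from ligands of the interleukin-6 family (Clcf1 and Cntf) through receptors such as that encoded by Osmr to STAT3, and Socs3, which STAT3 induces, encodes its feedback inhibitor. Clcf1 at 0.116 to 0.452 FPKM and Osmr at 0.229 to 0.5 FPKM over the 14 libraries were too low for the test. Stat3 (ENSMUSG00000004040, chromosome 11 from 100885098 to 100939540, minus strand) had 4.74, 5.62 and 4.55 FPKM in WT and 4.84, 3.43 and 4.28 in Δ3102 mice. It had 5.47, 5.22, 4.97 and 4.24 FPKM in the AG-KO mice and 3.64, 3.97, 4.01 and 3.50 in the NG-KO mice. All NG-KO mice lay below all WT and all AG-KO mice. Stat3 had a log2 fold change of -0.38 (SE 0.12, adjusted p = 0.355) in NG-KO against WT mice and 0.41 (SE 0.11, adjusted p = 0.160) in AG-KO against NG-KO mice, where DESeq2 gave an adjusted p of 0.0405 and the alternatives ran from 0.0405 to 0.841. Against WT it was -0.25 (SE 0.13) in Δ3102 mice and 0.030 (SE 0.12) in AG-KO mice. Socs3 FPKM was 0.512 to 0.673 in WT, 0.623 to 1.06 in Δ3102, 0.364 to 0.560 in AG-KO and 0.368 to 0.555 in NG-KO mice, with Δ3102 replicate 1 highest, and its log2 fold change was 0.52 (SE 0.31), -0.31 (SE 0.29) and -0.23 (SE 0.29) in Δ3102, AG-KO and NG-KO mice against WT.

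Cntf encodes ciliary neurotrophic factor, which astrocytes make. Its counts were 8, 74 and 86 in WT, 62, 19 and 60 in Δ3102 and 128, 97, 47 and 80 in the AG-KO mice. NG-KO replicates 1, 2 and 3 had a count of 0, which allows up to 3 counts, and NG-KO replicate 4 had 63, so 1 of 4 NG-KO mice lay within the range of the other genotypes. The standard error of its log2 fold change was above 1 in every comparison, with 2.45 (SE 1.41) in AG-KO against NG-KO mice. Of the 1073 exonic bases of Cntf, 847 (78.9%) also belong on the same strand to Zfp91, the gene next to it, so reads there can be assigned to either gene, and the level of Cntf is uncertain. In the rest of the pathway, a list of 17 ligands, receptors and kinases outside the members, 12 genes were tested and none passed an adjusted p of 0.05 in edgeR. At an unadjusted p under 0.05, Il6st and Il11ra1 were higher in AG-KO mice than in both WT and NG-KO mice, and no gene of the list passed in Δ3102 mice. The median log2 fold change of the 12 was -0.012 in Δ3102, 0.045 in AG-KO and -0.094 in NG-KO mice against WT, and 0.053 in AG-KO against NG-KO mice. The mean of Il6 over the 14 libraries was 0.00720 FPKM, that of Osm 0.0455 FPKM and that of Lif 0.189 FPKM.

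Since STAT3 binds elements of the form TTCNNNGAA and reactive genes also carry AP-1 elements, of the form TGANTCA, the promoters of the members were searched on both strands for both. RefSeq promoters of GRCm38.p6, 250 bases before to 50 bases after each gene start, were found for 28 of the 32 members, which have 38 such windows. TTCNNNGAA was found in 7 of the 38 windows, those of Emp1, Gfap, Socs3, Sphk1, Steap4 and Tgm1, and in 8.30% of all 32851 windows. TGANTCA was found in 7 of the 38, those of Cntf, Cp, Emp1, Osmr, S100a16 and Sphk1, and in 7.81% of all windows. The full cAMP response element TGACGTCA was in none of the 38 and in 1.79% of all windows. Its core TGACG, which the full element contains, was in 7 of the 38 and in 20.8% of all windows. Those 7 were windows of B3gnt5, Fbln5, Sphk1, Srgn and Timp1. Sphk1 has overlapping windows that hold the same sites, so each count of 7 holds these sites more than once. The stretches of Gfap, the marker of the state, Socs3, the feedback gene, and Emp1, the member with most of these matches in 1 window, are shown from 180 bases before to 10 bases after the RefSeq gene start, 5′ to 3′ on the strand of the gene. Capitals mark matches to TTCNNNGAA and TGANTCA.
Gfap, chr11:102897191-102897380, minus strand: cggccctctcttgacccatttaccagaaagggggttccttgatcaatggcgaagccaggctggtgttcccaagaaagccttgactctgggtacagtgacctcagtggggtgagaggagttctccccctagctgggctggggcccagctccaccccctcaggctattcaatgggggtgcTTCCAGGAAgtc
Socs3, chr11:117969357-117969546, minus strand: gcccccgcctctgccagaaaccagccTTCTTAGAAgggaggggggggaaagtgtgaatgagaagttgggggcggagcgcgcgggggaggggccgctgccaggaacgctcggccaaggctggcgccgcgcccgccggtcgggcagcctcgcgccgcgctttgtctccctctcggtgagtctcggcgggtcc
Emp1, chr6:135362751-135362940, plus strand: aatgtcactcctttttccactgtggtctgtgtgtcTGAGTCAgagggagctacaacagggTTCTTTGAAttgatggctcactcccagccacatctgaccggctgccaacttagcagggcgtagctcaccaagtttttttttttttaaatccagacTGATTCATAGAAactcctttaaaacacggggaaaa
The match of Gfap, TTCCAGGAA, begins 2 bases before the gene start, and that of Socs3, TTCTTAGAA, 154 bases before it. In Emp1, TGAGTCA begins 145 and TTCTTTGAA 120 bases before the start, and near the start TGATTCA at 25 bases overlaps TTCATAGAA at 22 bases. A match is a sequence and not a bound site. Of the 6 genes with TTCNNNGAA 4 were tested. In NG-KO against WT mice their log2 fold changes were -0.38 for Gfap, -0.23 for Socs3, -0.59 for Emp1 and -0.36 for Sphk1. In this comparison 21 of all 24 tested members were lower, so the direction does not set these 4 apart. Emp1 reached 0.5 FPKM in no NG-KO mouse, so its value is not support for a difference. In AG-KO against NG-KO mice the same 4 had 0.45, -0.081, -0.068 and 0.090. A part of STAT3 in these values was not tested.

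Sphk1 and S1pr3 belong to the sphingosine 1-phosphate system, in which the kinase encoded by Sphk1 makes the lipid and S1pr3 encodes one of its receptors. S1pr3 (ENSMUSG00000067586, chromosome 13 from 51408639 to 51422797, plus strand) had 2.22, 2.38 and 2.65 FPKM in WT and 2.07, 1.99 and 2.43 in Δ3102 mice. It had 3.74, 2.60, 3.00 and 3.91 FPKM in the AG-KO mice. It had 2.33, 2.20, 2.35 and 2.21 FPKM in the NG-KO mice, the tightest group. All AG-KO mice lay above all NG-KO mice, and the lowest AG-KO mouse, replicate 2, lay within the WT range. S1pr3 had a log2 fold change of 0.49 (SE 0.15, adjusted p = 0.199) in AG-KO against WT mice and 0.56 (SE 0.14, adjusted p = 0.124) in AG-KO against NG-KO mice, with the smallest adjusted p of any member in both, and levels 40.1% and 47.6% higher. For AG-KO against NG-KO mice the adjusted p was 0.0163 in DESeq2 and 0.0312 in edgeR without AG-KO replicate 2, where the log2 fold change was 0.67, and it ran from 0.0163 to 0.806 over the alternatives. In Δ3102 and NG-KO mice against WT the log2 fold change was -0.15 (SE 0.16) and -0.075 (SE 0.15). Sphk1 was low, at 0.121 to 0.648 FPKM over the 14 libraries, and its groups overlapped in every comparison. Its log2 fold change was -0.53 (SE 0.50, adjusted p = 1) in Δ3102, -0.27 (SE 0.46, adjusted p = 0.835) in AG-KO and -0.36 (SE 0.46, adjusted p = 0.864) in NG-KO mice against WT. In AG-KO against NG-KO mice it was 0.090 (SE 0.43, adjusted p = 0.947).

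The 4 S100 genes encode small calcium-binding proteins and lie on chromosome 3, with S100a16, S100a4 and S100a6 near each other and S100a10 apart from them, from 93555080 to 93564643. S100a4 (ENSMUSG00000001020, chromosome 3 from 90603771 to 90606045, plus strand), which is found in white matter astrocytes and in fibroblasts and leukocytes, had 3.54, 4.92 and 4.57 FPKM in WT and 1.85, 1.04 and 1.03 in Δ3102 mice. It had 1.99, 3.87, 2.18 and 2.60 FPKM in the AG-KO mice and 2.69, 1.48, 2.07 and 1.09 in the NG-KO mice. All Δ3102 and all NG-KO mice lay below all WT mice, and AG-KO replicate 2 was the only AG-KO mouse within the WT range. The log2 fold change of S100a4 was -1.70 (SE 0.42, adjusted p = 0.897) in Δ3102 and -1.22 (SE 0.38, adjusted p = 0.351) in NG-KO mice, 0.308 and 0.43 times the WT level, and -0.67 (SE 0.38) in AG-KO mice. Over the alternatives it ran from -2.02 to -1.22 in Δ3102 mice with an adjusted p of 0.0682 to 1. S100a4 shares 51.7% of its exonic bases with the gene model Gm42674 on the same strand, which had a count of 0 in all 14 libraries.

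S100a16 (ENSMUSG00000074457, chromosome 3 from 90537254 to 90543151, plus strand), which astrocytes express at a high level, had 35.9, 34.2 and 32.6 FPKM in WT and 19.4, 27.1 and 25.3 in Δ3102 mice. The AG-KO mice had 30.0, 30.6, 30.0 and 31.7 FPKM and the NG-KO mice 27.5, 26.8, 27.6 and 30.6 FPKM. All 11 mutant mice lay below all 3 WT mice in FPKM, with the Δ3102 mice lowest on average. The log2 fold change was -0.51 (SE 0.11, adjusted p = 0.610) in Δ3102 mice and -0.27 (SE 0.11, adjusted p = 0.454) in NG-KO mice, 0.702 and 0.827 times the WT level, and -0.13 (SE 0.11) in AG-KO mice, whose CPM overlapped those of the WT mice. In Δ3102 mice DESeq2 gave an adjusted p of 0.0375, and the alternatives ran from 0.0375 to 1. S100a6 and S100a10, which partner with annexins, overlapped between the genotypes. Their log2 fold changes were -0.14 (SE 0.22), -0.34 (SE 0.20) and -0.32 (SE 0.20) for S100a6 and -0.12 (SE 0.24), -0.20 (SE 0.22) and -0.11 (SE 0.22) for S100a10 in Δ3102, AG-KO and NG-KO mice against WT. S100a6 is also a gene of meningeal cells, and its log2 CPM and that of a list of 8 meningeal fibroblast genes had an r of 0.125 over the 14 libraries (permutation p = 0.666, adjusted p = 0.666) and a rho of 0.112 (permutation p = 0.704, adjusted p = 0.704). Without the 2 libraries farthest from the median r was 0.051.

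Emp1, Tm4sf1, Cd109, Cd14 and Slc10a6 are A2 genes that encode membrane proteins. Emp1 (ENSMUSG00000030208, chromosome 6 from 135362545 to 135383173, plus strand), a membrane-spanning protein of astrocytes and vessels, had 0.701, 0.621 and 0.490 FPKM in WT and 0.546, 0.568 and 0.482 in Δ3102 mice. It had 0.299, 0.373, 0.321 and 0.498 FPKM in the AG-KO mice and 0.435, 0.468, 0.384 and 0.303 in the NG-KO mice. All NG-KO mice lay below all WT mice, and 3 of 4 AG-KO mice did. Emp1 reached the filter level of 0.5 FPKM in 2 WT and 2 Δ3102 mice and in no AG-KO or NG-KO mouse, so it was tested only because of the groups in which it was higher, and its tests against WT are not support for a difference. Emp1 had a log2 fold change of -0.66 (SE 0.25, adjusted p = 0.271) in AG-KO and -0.59 (SE 0.25, adjusted p = 0.507) in NG-KO mice, -0.18 (SE 0.27, adjusted p = 1) in Δ3102 mice and -0.068 (SE 0.24, adjusted p = 0.925) in AG-KO against NG-KO mice. Tm4sf1 (ENSMUSG00000027800, chromosome 3 from 57285611 to 57301936, minus strand), a tetraspanin-like protein of endothelium and astrocytes, had 5.48, 3.42, 2.51 and 3.55 FPKM in the AG-KO mice and 2.20, 2.60, 2.29 and 3.11 in the NG-KO mice. AG-KO replicate 1 was far above the rest, AG-KO replicate 3 lay within the NG-KO range, and the WT mice had 3.06 to 3.59 FPKM. AG-KO against NG-KO mice differed in Tm4sf1 by a log2 fold change of 0.56 (SE 0.20, adjusted p = 0.252). Beside it, 4 of 9 endothelial marker genes (Cldn5, Flt1, Tek and Cdh5) had an unadjusted p under 0.05 in the same direction (7.30% of all tested genes). Of the 9, 7 were higher whatever their p (48.6% of all tested genes). The 2 that were lower were Ly6c1 (log2 fold change -0.32) and Slco1a4 (-0.017). The list had a summed level of 237.7 to 341 CPM in AG-KO and 229.4 to 246 CPM in NG-KO mice and no marker at 0. The part of these markers in the result was not tested. Cd14, the coreceptor for bacterial lipopolysaccharide, is a gene of microglia and macrophages as well, and stood at 0.363 to 1.93 FPKM with no unadjusted p under 0.05. Its r with a list of 10 microglia genes was 0.152 (permutation p = 0.610, adjusted p = 0.666), its rho 0.253 (permutation p = 0.381, adjusted p = 0.559), and r was 0.116 without the 2 libraries farthest from the median. Cd109, an inhibitor of transforming growth factor-β signaling, varied most within genotypes of all tested members, from 0.235 to 1.99 FPKM, and Slc10a6, a transporter of sulfated steroids, had counts in 3 of 14 libraries, at most 12.

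Cp, Lcn2 and Steap4 handle iron and copper. Cp (ENSMUSG00000003617, chromosome 3 from 19957054 to 20009145, plus strand) encodes ceruloplasmin, the ferroxidase that astrocytes carry on their surface. Its FPKM was 1.35, 1.16 and 1.59 in the WT mice and 0.701, 1.05, 0.713 and 0.889 in the NG-KO mice. The Δ3102 mice had 1.38, 1.17 and 1.22 FPKM and the AG-KO mice 1.32, 0.840, 0.930 and 1.20 FPKM. All NG-KO mice lay below all WT mice, while the AG-KO mice spread over both ranges. In NG-KO against WT mice Cp had a log2 fold change of -0.69 (SE 0.19, adjusted p = 0.284), 0.62 times the WT level, and over the alternatives it ran from -0.85 to -0.36, with an adjusted p of 0.0710 to 0.779. The choroid plexus also makes ceruloplasmin. A list of 9 choroid plexus genes summed to 129.6 to 197 CPM in the WT mice and 31.7 to 82.1 CPM in the NG-KO mice. In NG-KO against WT mice 5 of 6 tested genes were lower and 1, Aqp1, had an unadjusted p under 0.05 (4.83% of all tested genes). Aqp1 had a log2 fold change of -1.72 there and -1.58 in AG-KO against WT mice, where 4 of 6 tested genes were higher. Otx2 and Slc4a5 were at 0 in at least 1 library. Over the 14 libraries log2 CPM of Cp and this list had an r of 0.534 (permutation p = 0.0454, adjusted p = 0.113) and a rho of 0.516 (permutation p = 0.0629, adjusted p = 0.157). Without Δ3102 replicate 1, where the list stood at 2019 CPM, and NG-KO replicate 1, where it stood lowest, r was 0.358, so the relation did not hold without them, and the part of the plexus in the level of Cp was not tested further. Lcn2, a siderophore carrier strongly induced in many injuries, stayed at 0.0879 to 1.40 FPKM and Steap4, a metalloreductase, at up to 0.381 FPKM, and Lcn2 had no unadjusted p under 0.05.

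The matrix and secreted members differed in direction. Cd44 (ENSMUSG00000005087, chromosome 2 from 102811141 to 102901665, minus strand), the receptor for hyaluronan, had 0.400, 0.557 and 0.326 FPKM in WT and 0.793, 0.619 and 1.24 in Δ3102 mice. It had 0.600, 0.780, 0.562 and 0.860 FPKM in the AG-KO mice and 0.357, 0.910, 0.903 and 1.72 in the NG-KO mice. All Δ3102 and all AG-KO mice lay above all WT mice, the latter by a margin of under 0.01 FPKM, and so did 3 of 4 NG-KO mice, of which replicate 4 was the highest of the 14 and replicate 1 lay within the WT range. Cd44 had a log2 fold change of 1.04 (SE 0.45, adjusted p = 1) in Δ3102 and 1.19 (SE 0.43, adjusted p = 0.419) in NG-KO mice, levels 106% and 128% higher. It was 0.74 (SE 0.42) in AG-KO mice. Cd44 reached the filter level of 0.5 FPKM in 1 of 3 WT mice, in all Δ3102 and AG-KO mice and in 3 of 4 NG-KO mice. It was tested because of the groups in which it was higher, so its tests against WT are not support for a difference. Srgn, which encodes the proteoglycan serglycin of leukocytes, endothelium and A1 astrocytes, had 2.96, 3.43 and 3.50 FPKM in WT, 1.20, 1.54 and 3.57 in Δ3102 mice, 3.77, 3.34, 2.55 and 2.88 in the AG-KO mice and 2.82, 2.54, 2.90 and 2.30 in the NG-KO mice. Δ3102 replicates 1 and 2 were the lowest of all and Δ3102 replicate 3 was above all WT mice, and the NG-KO mice lay just below the WT mice. Its log2 fold change was -0.65 (SE 0.32, adjusted p = 1) in Δ3102 mice, where it was -1.25 without replicate 3 and -0.37 without replicate 1 of that genotype. It was -0.044 (SE 0.29, adjusted p = 0.965) in AG-KO and -0.30 (SE 0.29, adjusted p = 0.812) in NG-KO mice, and 0.26 (SE 0.27, adjusted p = 0.720) in AG-KO against NG-KO mice. Fbln5, an elastic fiber protein, stood at 0.480 to 1.27 FPKM and Lgals3, the galectin of activated microglia, at 0.0628 to 0.855 FPKM, neither with an unadjusted p under 0.05, although all 4 NG-KO mice lay below the WT mice in Lgals3. Timp1, the metalloproteinase inhibitor, had a count of 0 in 6 libraries and at most 29, and Ptx3, a pentraxin, stayed at 0.0766 to 0.583 FPKM.

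Of the remaining enzymes, Ggta1 and Aspg were tested and had no unadjusted p under 0.05 in any comparison. Ggta1, the α-1,3-galactosyltransferase of the A1 set, had 0.922, 0.880 and 1.03 FPKM in WT, 0.859, 0.608 and 0.907 in Δ3102 mice, 1.59, 0.832, 1.12 and 1.26 in the AG-KO mice and 0.798, 1.14, 0.887 and 1.13 in the NG-KO mice, and all groups overlapped. Its log2 fold change was -0.25 (SE 0.25, adjusted p = 1) in Δ3102, 0.38 (SE 0.23, adjusted p = 0.475) in AG-KO and 0.076 (SE 0.23, adjusted p = 0.950) in NG-KO mice, and 0.30 (SE 0.21, adjusted p = 0.572) in AG-KO against NG-KO mice. B3gnt5, the A2 enzyme that starts lacto-series glycolipids, was below the filter, with 0.203, 0.158 and 0.119 FPKM in WT, 0.110, 0.0810 and 0.181 in Δ3102 mice, 0.0758, 0.111, 0.0420 and 0.107 in the AG-KO mice and 0.0897, 0.0431, 0.0763 and 0.116 in the NG-KO mice. It had 11 to 69 counts per library, and all AG-KO and all NG-KO mice lay below all WT mice, while the Δ3102 mice overlapped them. Aspg, an asparaginase, stood at 0.326 to 0.832 FPKM, and Tgm1, a transglutaminase, at up to 0.225 FPKM.

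By set, the members were compared by their medians. In Δ3102 mice the median log2 fold change was -0.15 for the 7 tested pan-reactive genes, -0.25 for the 3 A1 genes and -0.17 for the 6 tested A2 genes. In AG-KO mice the medians were 0.072, -0.044 and -0.17, and in NG-KO mice -0.33, -0.304 and -0.38. In AG-KO against NG-KO mice they were 0.38, 0.28 and 0.011. Of the reactive genes outside the members, a list of 12 serpins, interferon and other genes, 10 were tested and none passed an adjusted p of 0.05 in edgeR. Serpina3n and H2-D1 had an unadjusted p under 0.05 and were higher in AG-KO mice than in both WT and NG-KO mice, Serping1 was lower in AG-KO and NG-KO than in WT mice, and Hspb1 was lower in NG-KO mice than in both WT and AG-KO mice. Of 6 inducers of the A1 state 3 were tested and 1, C1qb, was higher in AG-KO mice than in both WT and NG-KO mice at an unadjusted p under 0.05, with Il1a at a mean of 0.269 FPKM and Tnf at 0.0138 FPKM.

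Markers of resting astrocytes were compared with the reactive genes. A list of 24 homeostatic astrocyte genes was tested in full. At an unadjusted p under 0.05, 6 were higher (7.30% of all tested genes) and 1 was lower (6.84%) in AG-KO than in NG-KO mice. Kcnj10, the inward-rectifier potassium channel of astrocytes, was higher and passed the adjusted threshold (log2 fold change 0.72, adjusted p = 0.0370 from edgeR). The 1 that was lower was Agt (log2 fold change -0.59, adjusted p = 0.160 from edgeR). Against WT mice Agt had -0.53 in AG-KO mice. Against WT, 4 were higher (6.65% of all tested genes) and 1, Agt, was lower (7.74%) in AG-KO mice at an unadjusted p under 0.05. In NG-KO mice none was higher (4.33%) and 2 were lower (4.83%), and in Δ3102 mice 1 was higher (2.18%) and 2 were lower (2.27%). The list summed to 7361 to 8343 CPM in WT and 7816 to 8487 in Δ3102 mice. The sum was 7835 to 8710 CPM in AG-KO and 7195 to 8180 in NG-KO mice, so the groups overlapped in it. Gfap did not overlap between AG-KO and NG-KO mice, and neither did some single genes of the list. Aqp4 was at 15.2 to 16.6 FPKM in AG-KO and 10.8 to 12.6 in NG-KO mice (adjusted p = 0.0597 from edgeR). Aldh1l1 was at 12.7 to 14.2 and 9.47 to 12.3 FPKM. Whatever their p, 19 of the 24 were higher and 5 lower in AG-KO than in NG-KO mice, while 48.6% of all tested genes were higher. Log2 CPM of Gfap and the list had an r of 0.34 (permutation p = 0.235, adjusted p = 0.391) and a rho of 0.222 (permutation p = 0.447, adjusted p = 0.559), and r was -0.088 without NG-KO replicate 4 and AG-KO replicate 4, the libraries farthest from the median.

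Markers of oligodendrocytes differed between the genotypes in the same direction as the filament genes. The list has 8 genes, among them Mbp, Mog, Mag and Cnp, which encode myelin proteins. At an unadjusted p under 0.05, all 8 were lower in NG-KO than in WT mice (4.83% of all tested genes). All 8 were also higher in AG-KO than in NG-KO mice at such a p (7.30%). The median log2 fold changes were -0.99 and 0.87. In Δ3102 mice 5 of 8 were lower than in WT mice at such a p (2.27%). None of the 8 passed the adjusted threshold in edgeR. The list summed to 2182 to 5109 CPM in WT, 1924 to 2353 in Δ3102, 2279 to 4076 in AG-KO and 1344 to 2132 in NG-KO mice, with no marker at 0. WT replicate 2 and AG-KO replicate 1, the highest in Vim, were the highest in this list too, and NG-KO replicate 4, the lowest in Gfap, was the lowest. The same 2 libraries were highest in a list of 7 ependymal genes, at 65.6 CPM in WT replicate 2 and 80.0 CPM in AG-KO replicate 1. All 7 of these genes were higher in AG-KO than in NG-KO mice (48.6% of all tested genes). Of the 7, 2 had an unadjusted p under 0.05 from edgeR. The part of ependymal cells in the level of Vim was not tested. With the summed level of the list as a covariate in edgeR, a fit chosen after the data were seen, the log2 fold change in AG-KO against NG-KO mice was 0.097 for Gfap, 0.202 for Vim, 0.25 for Stat3, 0.501 for Nes, 0.48 for S1pr3 and 0.61 for Tm4sf1. In NG-KO against WT mice it was -0.021 for Gfap and -0.21 for Stat3. The members at an unadjusted p under 0.05 were then 1 in AG-KO against NG-KO and 2 in NG-KO against WT mice, in place of 6 and 7. Of all tested genes 6.08% and 5.52% had such a p in this fit, in either direction, so that the calls were fewer over all genes too. The genotype means of the list differ, so this fit also takes up differences between the genotypes, and the 2 cannot be told apart. In the same fit S100a4 was at -1.61 in Δ3102 and -1.09 in NG-KO mice, S100a16 at -0.52 and -0.29, and the median of the members at -0.33 in NG-KO mice.

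**Figure D4:**
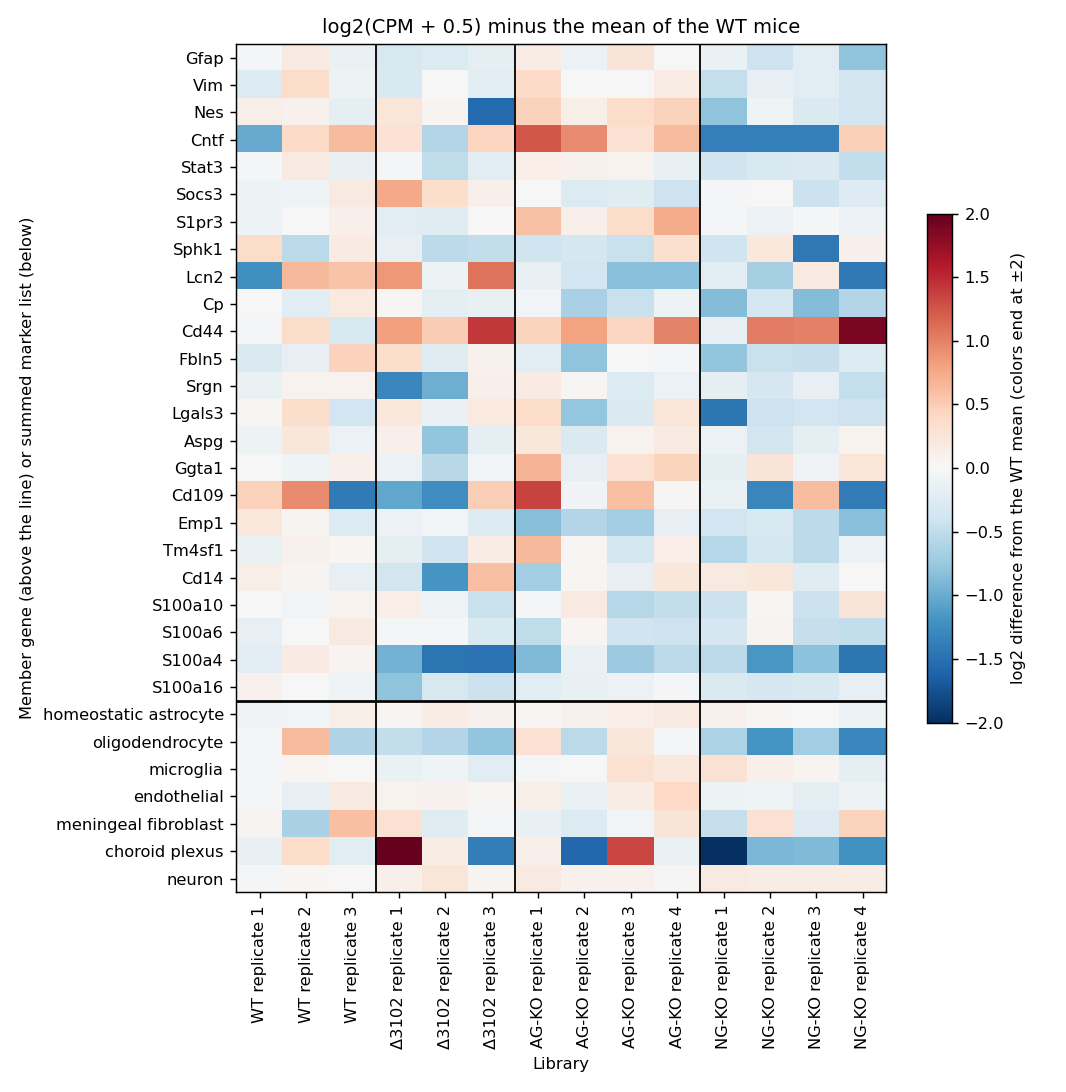
Difference of log2(CPM + 0.5) from the mean of the WT mice (color, ending at 2 in either direction) for the 24 tested members and, below the line, for the summed level of 7 marker lists, in each of the 14 libraries. In the NG-KO columns Gfap, Vim, Stat3 and the oligodendrocyte list are blue in all 4 mice, and Cntf is blue in replicates 1 to 3 and red in replicate 4.

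Other tissue also differed between libraries. A list of 8 hepatocyte genes summed to 627 to 804 CPM in the WT mice and to 1.38 to 216.7 CPM in the AG-KO mice, and varied within Δ3102 and NG-KO mice. A list of 6 skeletal muscle genes summed to 41.6 to 810.3 CPM in WT, 757 to 1051 in Δ3102, 9.23 to 393 in AG-KO and 18.8 to 339.7 in NG-KO mice. A list of 5 testis genes summed to 0.0730 to 127.8 CPM over the 14 libraries and overlapped between all genotypes. With Alb, a gene of the hepatocyte list, as a covariate in edgeR, the count of members at an adjusted p under 0.05 stayed at 0 in every comparison. It was 0 without the covariate too. Alb also differed between genotypes, at 126 to 167 FPKM in WT and at most 44.8 FPKM in AG-KO mice. This fit therefore cannot show the part of these lists in the results on the members, which was not tested. A list of 6 neutrophil genes summed to at most 21 CPM in a library, and Ly6g, its defining marker, had no signal in any.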

How the data were processed

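Libraries came from the hippocampus of 14 mice, 1 per mouse, grouped by the labels. Per the labels and the study's methods, the authors trimmed reads with cutadapt 1.9 and mapped them to GRCm38 with HISAT2 2.0.4. FPKM values were calculated by the authors with StringTie 1.3.4d. The deposited counts are whole numbers, not normalized; the program that made them is not given in the sources used here, nor is its use of strand.

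Counts of all 14 libraries (44527024 to 62669865 each) were fitted with edgeR 4.0.16 in R 4.3.3 (TMM, quasi-likelihood test, 1 mean per genotype, no covariate). Genes with at least 0.5 FPKM in at least 3 libraries were tested, 18059 of 55450, and p was adjusted by Benjamini-Hochberg over them, two-sided, at 0.05. Standard errors were taken as the fold change on the log2 scale over the square root of F. The procedure was tested on simulated data. Alternatives were DESeq2 1.42.0, limma 3.58.1 on log2(FPKM + 0.1) and log2(FPKM + 1), median-ratio scaling, other filters, the replicate number as a block, Alb as a covariate, 2-group fits and leaving out each library. An oligodendrocyte covariate was added after the data were seen. Correlations used log2 CPM and 100000 permutations. The members and all gene lists were chosen with earlier results of these data known. Fold change, standard error and p are given for members with an unadjusted p under 0.05 and, in every comparison, for Gfap, Vim, Ggta1, Srgn, Sphk1, Emp1 and B3gnt5 where tested; other members have levels, some with a fold change. Overlap of groups was judged on FPKM. Coordinates are those of the deposited table on GRCm38, and 26 of 32 members have the same in GENCODE release M21. Promoters are from RefSeq (GRCm38.p6).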

Additional observations from a re-analysis of the deposited data

Results flagged for a closer look

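In groups of 4 mice, 4 values lay far from the other 3, by a gap past Dixon's critical value, among 63 groups of values compared. About 1 group in 20 does so by chance, or 3.15 of 63. Clcf1 was 0.452 FPKM in AG-KO replicate 3 and 0.150 to 0.201 in the other AG-KO mice. Cntf was 1.08 FPKM in NG-KO replicate 4, and the other NG-KO mice had a count of 0. Lgals3 was 0.0628 FPKM in NG-KO replicate 1 and 0.381 to 0.399 in the other NG-KO mice. S100a6 was 4.66 FPKM in AG-KO replicate 2 and 3.13 to 3.20 in the other AG-KO mice. AG-KO replicate 2 was also the AG-KO mouse with the lowest S1pr3 and the highest S100a4, and NG-KO replicate 1 the NG-KO mouse with the lowest Vim and Nes. The causes were not tested.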

How the results depend on the processing

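Over 24 alternatives per comparison the count of members at an adjusted p under 0.05 stayed at 0 except in DESeq2, with 1 in Δ3102 against WT and 3 in AG-KO against NG-KO mice, and, in the latter, 0 to 1 when single libraries were left out. The 1 was S1pr3 without AG-KO replicate 2 and Cntf, whose other NG-KO mice had a count of 0, without NG-KO replicate 4 (adjusted p = 0.0331 from edgeR). The median log2 fold change of the members turned in AG-KO against WT mice, to 0.055 with a filter of 1 FPKM, and ran from -0.097 to 0.060 without single libraries, positive without WT replicate 2. In AG-KO against NG-KO mice it was 0.43 with that filter, which tests fewer members, and 0.16 in limma on log2(FPKM + 1). In NG-KO mice it was -0.26 in that limma fit, where a larger pseudocount compresses low genes.

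Single genes changed sign where their fold change was near 0. For AG-KO against WT mice Gfap was -0.056 with Alb as a covariate. Without single libraries Vim ran from -0.016 (without WT replicate 1) to 0.32 and Srgn from -0.12 to 0.034 (without AG-KO replicate 3). Vim in Δ3102 mice ran from -0.33 to 0.0070 (without WT replicate 2). For AG-KO against NG-KO mice Emp1 ran from -0.25 to 0.038, positive without AG-KO replicate 1 or NG-KO replicate 2, and Sphk1 from -0.21 to 0.33, negative without AG-KO replicate 4 or NG-KO replicate 3. The log2 fold change of Cd44 was 0.43 in NG-KO and 0.39 in Δ3102 mice in limma on log2(FPKM + 1), and that of Sphk1 was 0.96 in AG-KO against NG-KO and -1.20 in NG-KO against WT mice with the oligodendrocyte covariate.

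The replicate numbers did not pair the mice: over 19 pairs of libraries with the same number the correlation of deviations ran from -0.24 to 0.22 (median -0.017). With the replicate block Srgn in AG-KO mice was 0.025, and no member passed an adjusted p of 0.05 in any comparison.

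Of the correlations, Gfap and Vim had 0.23 centered on the genotype means and 0.46 without the 2 farthest libraries, and 0.57 to 0.72 without single libraries. Cp and the choroid plexus list had 0.31 and 0.36, and 0.42 to 0.61 without single libraries, with a permutation p of 0.147 without NG-KO replicate 1. Gfap and the homeostatic astrocyte list had -0.088 without the 2 farthest libraries and -0.0091 to 0.53 without single libraries, lowest without NG-KO replicate 4. S100a6 and the meningeal list had -0.13 to 0.30, negative without WT replicate 3. Levels under 0.5 FPKM rest on few counts per library.

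The number of all genes past the adjusted threshold depended on the setting: it was 2, 4, 13 and 20 in the 4 comparisons in edgeR and 33, 401, 165 and 455 in DESeq2. Without AG-KO replicate 2 it was 87 in AG-KO against WT and 297 in AG-KO against NG-KO mice. With the oligodendrocyte covariate it was 6 in NG-KO against WT and 9 in AG-KO against NG-KO mice. The cause of these changes was not tested.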
